A study of Mus musculus with 8 samples.

Results

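Cardiomyocytes were examined in chimaeric mouse embryos at E8.5, in which embryonic stem cells without the 3 TET dioxygenases had contributed to host embryos. A cell was taken as a cardiomyocyte when at least 5 of 7 heart muscle transcripts were detected in it, each by at least 1 UMI (unique molecular identifier, the tag by which single captured RNA molecules are counted). The 7 genes were Tnnt2, Myl7, Myl4, Actc1, Ttn, Myh6 and Csrp3. Only barcodes with at least 1500 UMIs entered, and of these UMIs at most 30% could be mitochondrial and at most 35% ribosomal protein transcripts. This rule found 866 cardiomyocytes among 37211 kept cells, of which 454 were Tet-TKO and 412 were WT host cells. The cells were thus chosen by the measured detection of the 7 genes, and the levels of these genes are given as a description.

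The Tet-TKO cells descend from 1 line of triple-knockout embryonic stem cells of mixed C57BL/6J-129Sv background that carries an H2B-tdTomato label driven by the CAG promoter. The line was injected into C57BL/6J blastocysts, and pooled embryos were dissociated and sorted into tdTomato+ cells (Tet-TKO) and tdTomato- cells (WT host), each as viable singlets. Droplet libraries (10x Genomics, 3′ chemistry) were sequenced from 4 Tet-TKO and 2 host samples of E8.5, and from 1 of each at E7.5. Every Tet-TKO cell differed from every host cell in strain background, culture history and label as well as in the Tet genes, and these cannot be told apart here. The sexes of the embryos and of the line are not given in the labels. Xist, the RNA that coats the inactive X chromosome of female cells, had 7.34, 3.18, 0.616 and 2.24 CPM (UMIs per 1000000) in the cardiomyocytes of the 4 Tet-TKO libraries, in order, against 419 and 363 CPM in those of the host, so Xist moved with the genotype, and the sex makeup of the cells cannot be told apart from it here. The labels do not say which libraries came from separate pools of embryos. The study speaks of matching host embryos without naming the libraries that match. The p-values therefore measure the spread between libraries, which may be technical.

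Heart muscle is among the earliest tissues of the embryo to differentiate. Cells of the cardiac crescent switch on sarcomere genes and form a beating tube, to which progenitors of the second heart field are added at both ends. Myosin forms the thick filaments of the sarcomere, actin with tropomyosin and the troponins forms the thin filaments, and the Z-disc anchors the latter. TET enzymes oxidise methylated cytosine, mostly in CpG dinucleotides, as a step towards its removal.

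UMIs of the targeted genes were present in Tet-TKO cardiomyocytes. Tet1 had 8.89, 8.27, 12.7 and 15.1 CPM in the 4 Tet-TKO libraries against 24.7 and 18.8 CPM in the host, libraries in order, where CPM is the UMIs of a gene when those of all cardiomyocytes of a library are scaled to 1000000. Its log2 fold change of -0.97 did not pass the test (adjusted p = 0.080, edgeR quasi-likelihood test). For Tet2 the levels were 10.1, 5.09, 18.1 and 14 CPM against 7.74 and 8.25 CPM, and for Tet3 they were 34.4, 17.8, 35.1 and 47.0 CPM against 26.9 and 32.6 CPM. Counts from the 3′ end of a transcript do not show whether it is intact, so these genes do not check the labels. The sorted label did: tdTomato UMIs were found in 77.5%, 77.4%, 91.5% and 92.5% of the cardiomyocytes of the 4 Tet-TKO libraries, in order, and in 0 of 412 WT host cardiomyocytes, which allows up to 0.728% of cells with a UMI and sets no limit on labelled cells without one.

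Depth differed between libraries. A cardiomyocyte had a median of 14903, 10056, 38556 and 67232 UMIs in the Tet-TKO libraries, in order, beside 14003 and 12201 UMIs in the host, and the sum over cardiomyocytes was between 1572141 and 4873471 UMIs per library. Tet-TKO libraries 1 and 2 resembled each other, and so did libraries 3 and 4: over genes the chi-square per degree of freedom between summed cardiomyocytes was 1.57 and 4.52 within these pairs, between 9.46 and 13.1 across them, and 2.53 between the WT host libraries. Each library was counted as a sample, and tests without either pair are given in the closing section. No barcode of a cardiomyocyte was shared between libraries. Removal of predicted doublets would take away between 0 and 13 cardiomyocytes of each Tet-TKO library but 27 and 39 of the WT host libraries. The share of cells removed, those with the highest doublet scores, was set in advance at 0.8% for each 1000 barcodes. There were 7221, 9751, 2563 and 1238 barcodes in the Tet-TKO libraries and 8873 and 9521 in the host. Tet-TKO libraries 3 and 4 thus lost few cells by this setting.

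The 7 genes of the rule were high in the chosen cells and low elsewhere in every library. Tnnt2, which encodes cardiac troponin T, had 3028, 3302, 3925 and 2776 CPM in the Tet-TKO cardiomyocytes against 3012 and 3065 CPM in those of the host, libraries in order, whereas the other kept cells had between 4.54 and 13.95 CPM. Myl7, the atrial regulatory light chain of myosin, had 5172, 5912, 6445 and 4172 CPM against 8683 and 8596 CPM. Actc1, cardiac alpha-actin, had 2439, 2274, 4125 and 3270.5 CPM against 5764 and 6589 CPM, and Csrp3, a Z-disc protein, had 145, 185, 168 and 165 CPM against 333 and 493 CPM. All 4 Tet-TKO libraries thus lay below both WT host libraries for Myl7, Actc1 and Csrp3. Myl4 (2938 to 3732 CPM against 3616 and 3851 CPM), Ttn (619 to 1899 CPM against 1294 and 1526 CPM) and Myh6 (115 to 433 CPM against 339 and 420 CPM) had overlapping groups, with Tet-TKO libraries 3 and 4 above libraries 1 and 2 for the giant protein titin (Ttn) and the alpha myosin heavy chain (Myh6). Nkx2-5, a homeobox factor of early heart muscle that the rule did not use, was detected in 52.0% to 67.4% of cardiomyocytes and in 1.71% to 2.60% of other cells when each cell was thinned to 5000 UMIs. This bears on the chosen cells as a group and not on each cell. Within the group the level of Nkx2-5 was lower in the cells poor in rule genes, as given below.

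The edge of the rule lay in a gradual range. Cells with 5 detected genes, pooled within each library, had 0.141% to 0.814% of their UMIs in the 7 genes over the 6 libraries. Cells with 4 detected genes, just outside the rule and pooled likewise, had 0.0252% to 0.159%. There were between 13 and 54 cells of the former and between 16 and 66 of the latter per library. UMIs of single rule genes were also found outside the cardiomyocytes, for example of Myl7 in 6.43% to 20.6% of the other cells, and the part of free RNA in cells near the edge was not tested.

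Cardiomyocytes made up a larger share of some Tet-TKO libraries than of the host libraries and a smaller share of others. They were 2.14%, 1.39%, 5.08% and 5.24% of kept Tet-TKO cells, in library order, beside 2.71% and 2.08% of kept host cells, and the 95% Wilson intervals, which cover counting error only, ran from 1.18% to 1.65% in Tet-TKO library 2 and from 4.03% to 6.79% in library 4. Tet-TKO libraries 3 and 4 lay above both host libraries, library 1 between them and library 2 below both. The mean was 3.46% ± 1.98 (SD, n = 4) against 2.40% ± 0.447 (SD, n = 2), a difference within the spread between libraries (exact permutation test, two-sided p = 0.667; the smallest p that 4 against 2 libraries allow is 0.133). Without cells of over 10% haemoglobin the shares were 2.14%, 1.39%, 5.10% and 5.26% against 2.88% and 2.56%, so that Tet-TKO library 1 also lay below both host libraries, and the log2 ratio of the means was 0.35. With the rule applied to cells thinned to 5000 UMIs the shares were 1.60%, 1.14%, 3.95% and 3.26% against 2.36% and 1.78%. The log2 ratio of the mean shares was 0.53 over all libraries, -0.44 without Tet-TKO libraries 3 and 4 and 1.11 without libraries 1 and 2, so its direction rested on the former pair. At E7.5 the rule found 0 of 5513 Tet-TKO cells, which allows up to 0.0544%, and 2 of 7142 WT host cells.

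**Figure D1:**
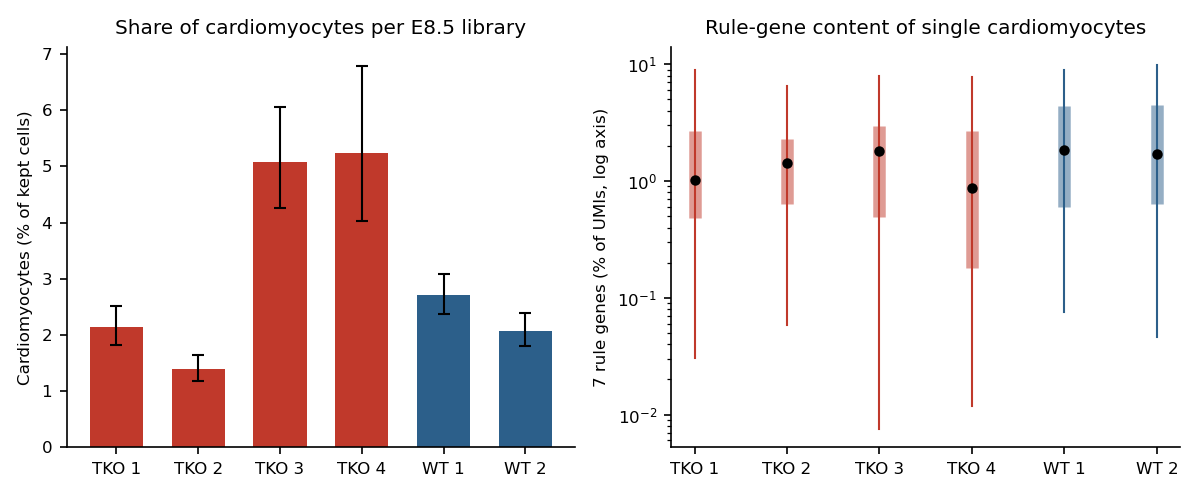
Left, cardiomyocytes as a percentage of kept cells in each E8.5 library (bars, Tet-TKO red, WT host blue) with 95% Wilson intervals; right, percentage of UMIs in the 7 rule genes per cardiomyocyte on a log axis, with the median (dot), the quartiles (thick bar) and the range (line). Tet-TKO libraries 3 and 4 had shares above 5% and libraries 1 and 2 lay near the host libraries, while the content of rule genes spanned a similar wide range in all 6 libraries.

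Single cardiomyocytes differed widely in how much of their RNA came from the rule genes. The 7 genes took between 0.00749% and 9.83% of the UMIs of a cell, with medians of 1.03%, 1.44%, 1.82% and 0.879% for Tet-TKO and of 1.85% and 1.71% for host cells. A content of at least 1% was found in 50.3%, 64.7%, 64.96% and 49.1% of Tet-TKO cardiomyocytes and in 64.7% and 60.6% of WT host cardiomyocytes. The 1% level splits a continuous range and defines no cell type. Cells above and below it were summed per library to see which other genes went with the rule genes, a description without a test because the rule genes set the split.

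Nkx2-5, Myl3, Myl2, Actn2, Irx4 and Tdgf1, given as examples, had higher levels in the cells rich in rule genes in every library, which was not so of all genes of the heart lists. Hcn4, a pacemaker channel, had 20.5, 6.37, 30.4 and 60.7 CPM in the rich Tet-TKO cells and 25.3 and 31.0 CPM in those of the host, beside 8.59, 1.59, 45.1 and 25.4 CPM and 25.2 and 27.4 CPM in the poor cells, so it was lower in the rich cells of Tet-TKO library 3. Asph, a protein of the sarcoplasmic reticulum, was likewise lower in those of 3 libraries, for example 50.1 against 55.5 CPM in WT host library 1. Nkx2-5 had between 74.0 and 174 CPM over the 6 libraries in cells below 1% and between 273 and 446 CPM in cells above it. For Myl3, the ventricular essential light chain, the ranges were 28.5 to 106 CPM and 725 to 2059 CPM, and for Myl2, the ventricular regulatory light chain, 0.571 to 9.62 CPM and 55.2 to 364 CPM. Actn2, the Z-disc alpha-actinin, went from at most 7.31 CPM to between 37.2 and 178 CPM. Irx4, a homeobox factor of the ventricles, had 2.85 to 11.1 CPM below 1% and 28.7 to 45.2 CPM above it, and Tdgf1, a co-receptor of Nodal found in the early outflow tract, had 3.65 to 13.1 CPM and 54.7 to 130 CPM.

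Isl1, Foxf1, Nr2f2 and Sfrp5, again examples, had higher levels in the cells poor in rule genes. Isl1, a factor of second heart field progenitors, had between 41.6 and 97.1 CPM in cells below 1% and between 13.1 and 41.9 CPM above it, lower in each library. Foxf1, a forkhead factor of splanchnic mesoderm, had 95.3 to 181 CPM and 7.58 to 55.8 CPM. Nr2f2, which marks atrial and venous identity, had 48.9 to 116 CPM and 13.96 to 43.4 CPM, and Sfrp5, a Wnt inhibitor of the inflow region, had 106 to 238 CPM and 35.2 to 130 CPM. Hand2, a factor of cardiac mesoderm, varied less, with 99.6 to 211 CPM and 75.8 to 143 CPM. The cyclin-dependent kinase inhibitor Cdkn1c was higher in the cells rich in rule genes, at 2454 to 3035 CPM against 1087 to 1686 CPM, and the proliferation antigen Mki67 was lower in every library, at 40.4 to 113 CPM against 44.4 to 180 CPM. These differences between cells poor and rich in rule genes had the same direction in the libraries of both genotypes, while levels could differ: in the rich cells Myl2 had 116, 55.2, 257 and 189 CPM in Tet-TKO against 288 and 364 CPM in the host.

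**Figure D2:**
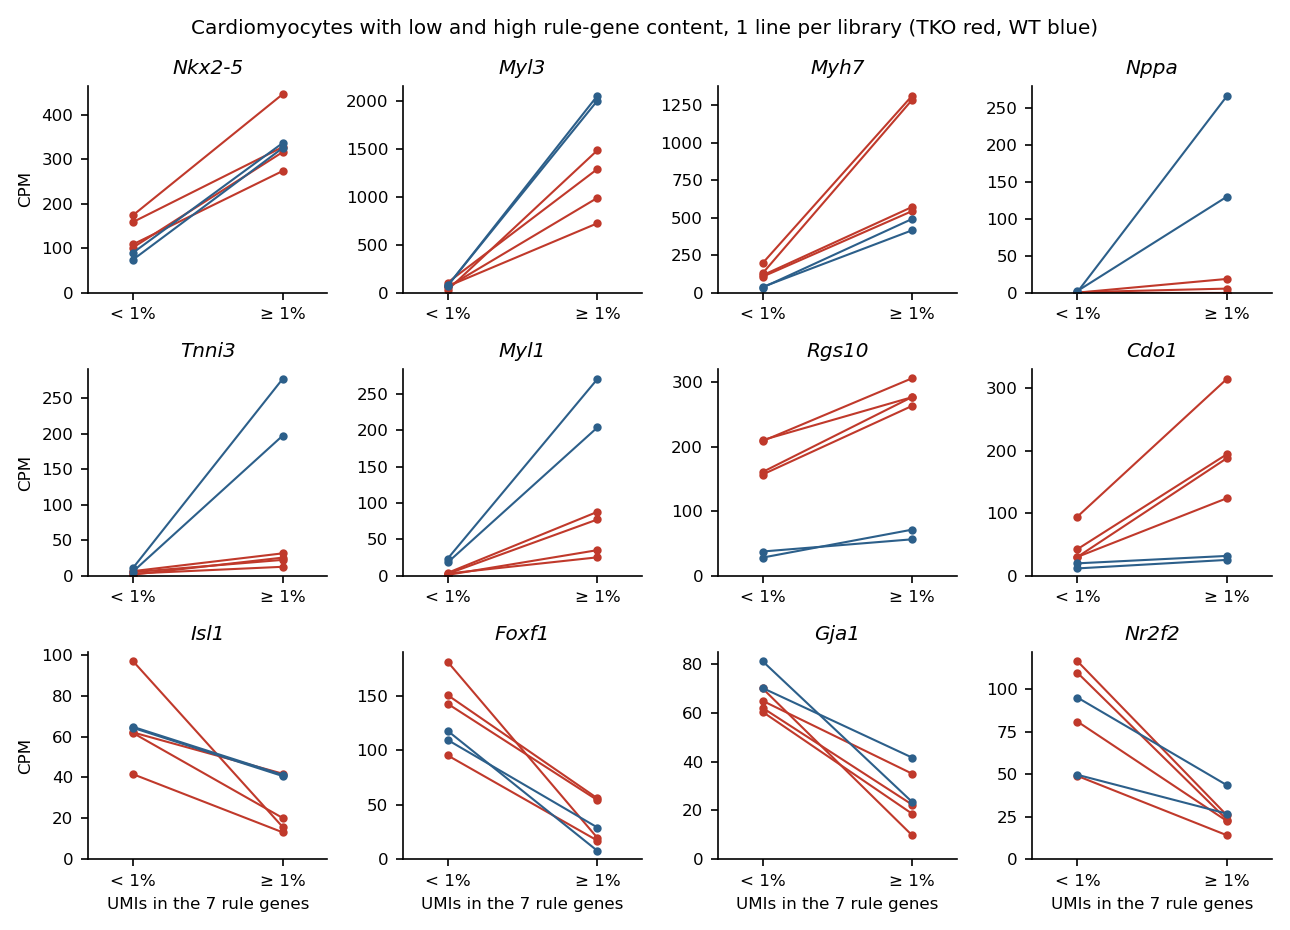
Level in CPM of 12 genes in cardiomyocytes with less than 1% and with at least 1% of UMIs in the 7 rule genes, 1 line per library (Tet-TKO red, WT host blue). Nkx2-5 and Myl3 went up and Isl1, Foxf1, Gja1 and Nr2f2 went down along all 6 lines, whereas Nppa, Tnni3 and Myl1 went up more steeply in both host lines than in any Tet-TKO line.

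Expression was compared between genotypes on UMIs summed over the cardiomyocytes of each library, and genes counted as called below an adjusted p of 0.01 with a log2 fold change of at least 1 in size (edgeR quasi-likelihood test, 4 against 2 libraries). Of 11007 genes tested, the 7 of the rule left aside, 123 were called (1.12%), 30 of them higher (0.273%) and 93 lower (0.845%) in Tet-TKO cardiomyocytes. At an unadjusted p of 0.05 there were 1468 genes. For all 123 called genes every Tet-TKO library lay outside the range of the WT host libraries, which was also true of 1291 higher and 1213 lower genes among all tested, called or not. Without WT host library 1, and likewise without library 2, 34 genes were called, all of them among the 123. The lone host library is then assumed to vary like the Tet-TKO libraries, and a call can be lost in this way with or without a smaller fold. The log2 fold change of Gata5 was -1.33 and -1.35 in the absence of library 1 and 2, beside -1.35 with both. That of Tnnt1 was -1.83 in the absence of library 1, beside -2.29 with both. With tdTomato, Xist, Y-linked and haemoglobin genes left out 115 genes were called, 29 higher and 86 lower. A sum over cells does not tell fewer expressing cells from less RNA per cell, and shares of cells with a UMI are given where they add to this.

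Tnni3, Tnnt1, Myl1 and Nppa fell. Tnni3, which encodes cardiac troponin I, the inhibitory troponin that replaces the early form made by Tnni1, had 17.0, 8.91, 17.0 and 13.2 CPM in the Tet-TKO libraries, given in order here and in what follows, against 123 and 163 CPM in those of the host. No Tet-TKO library came near the host libraries, and the log2 fold change was -3.35 ± 0.21 (SE; adjusted p = 1.58e-05). This call was kept in all 23 alternatives run, of which 1 kept only the cells rich in rule genes and is a description, since the rule genes chose the cells. The alternatives with an adjusted p of 0.05 and with no minimum fold change only loosened the threshold of the main fit. They could lose no call, which holds for every count of alternatives given here and below. Nppa, which encodes the atrial natriuretic peptide made by working chamber muscle, had 0, 0, 11.9 and 2.80 CPM against 80.6 and 152 CPM, with a log2 fold change of -4.64 ± 0.64 (SE; adjusted p = 0.00367). Its adjusted p was 0.0195 without WT host library 1, 0.0663 without library 2, 0.0402 with 53 cells from each library and 0.344 by DESeq2, and the log2 fold change of Nppa in these 4 alternatives was between -5.11 and -3.68. The other 19 alternatives kept the call. Nppa was detected in 0%, 0%, 3.51% and 2% of Tet-TKO cardiomyocytes thinned to 5000 UMIs and in 8.84% and 10.3% of WT host cardiomyocytes, so even in the host most cells had no UMI of it at this depth.

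Myl1, a light chain of fast skeletal muscle that is transcribed in early heart, had 15.5, 16.5, 50.7 and 42.8 CPM against 132 and 165 CPM (log2 fold change -2.23 ± 0.34, SE; adjusted p = 0.00612). Tet-TKO libraries 3 and 4 were higher than 1 and 2 but all lay below the host libraries. Tnnt1, the slow skeletal troponin T, had 10.4, 9.54, 9.03 and 8.96 CPM against 55.3 and 32.6 CPM (log2 fold change -2.29 ± 0.25, SE; adjusted p = 0.000848). The adjusted p of Myl1 was 0.043 and 0.0943 without WT host library 1 and 2, 0.0150 with the rule applied to thinned cells and 0.0129 with Tet-TKO libraries summed in pairs (log2 fold change of Myl1 there -1.98 and -2.25), and that of Tnnt1 was 0.0222 without library 1 and 0.0105 with 53 cells from each library (log2 fold change of Tnnt1 there -1.83 and -2.51). In cells rich in rule genes Tnni3 had 12.7 to 31.6 CPM in the Tet-TKO libraries against 197 and 277 CPM in the host, Myl1 25.5 to 88.1 CPM against 204 and 271 CPM, and Nppa 0, 0, 18.6 and 5.47 CPM against 130 and 267 CPM, values given without a test because the rule genes set the split.

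**Figure D3:**
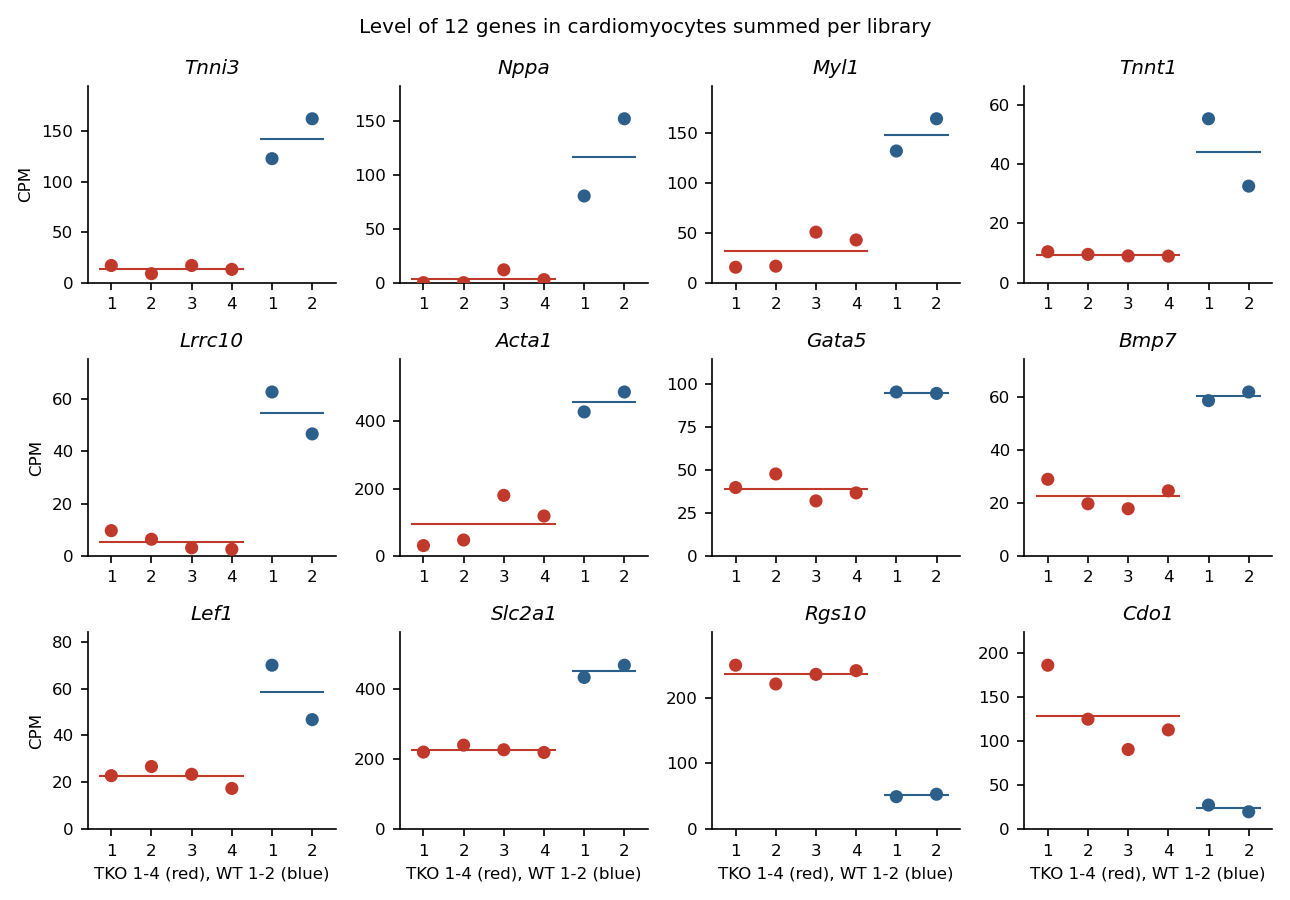
Level in CPM of 12 genes in cardiomyocytes summed per library (points, Tet-TKO 1 to 4 red, WT host 1 and 2 blue; lines are group means; each axis starts at 0). For all 12 genes the Tet-TKO points lie on 1 side of both host points; Acta1 is shown although it was not called.

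Most sarcomere genes did not pass the test. Of 6 tested genes of the thick filament 1 was lower (Myl1), of 12 of the thin filament 2 (Tnni3 and Tnnt1), and of 18 of the Z-disc and costamere 0, and no gene of these lists was higher, beside 0.845% called lower over all genes. The medians of their log2 fold changes were -0.49, -0.57 and -0.01, beside 0.02 over all genes tested. Tnnt1 (chr7:4504570-4516382) and Tnni3 (chr7:4518305-4524229) lie close together on the - strand, and whether their 2 calls are independent was not tested. Tpm1, the main tropomyosin, had 4164, 4342, 5668 and 4509 CPM against 6094 and 6026 CPM (log2 fold change -0.42, adjusted p = 0.218). Acta2, the smooth muscle actin that early heart muscle also makes, had 1836 to 4118 CPM against 3259 and 3361 CPM. Tnni1, the early troponin I, had 945, 1053, 1059 and 878 CPM against 1597 and 1771 CPM (log2 fold change -0.82, adjusted p = 0.0183).

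Further sarcomere genes that were not called are given with their values. Acta1, skeletal alpha-actin, had 30.5, 47.1, 180 and 118 CPM against 428 and 487 CPM, and its log2 fold change of -2.33 had an adjusted p of 0.0255. Ankrd1, a stress-responsive protein of the sarcomere, had 138, 128, 180 and 315 CPM against 536 and 563 CPM (adjusted p = 0.0103). It was detected in 21.7% to 30% of Tet-TKO cardiomyocytes and in 49.8% and 42.3% of WT host cardiomyocytes at 5000 UMIs. Myl3 had 599, 461, 964 and 488 CPM against 1289 and 1177 CPM, and Myl2 had 50.6, 34.3, 165 and 88.5 CPM against 180.0 and 209 CPM (adjusted p = 0.0645 and 0.204). Myh7, the beta myosin heavy chain, had 305, 369, 913 and 663 CPM against 270 and 295 CPM, higher in 4 of 4 Tet-TKO libraries (log2 fold change 0.92, adjusted p = 0.262). Its detection at 5000 UMIs was 56.0% to 72.8% against 46.0% and 35.4%. Of the most abundant Z-disc genes, Nexn had 383 to 682 CPM against 502 and 518 CPM and Pdlim7 had 300 to 402 CPM against 272 and 293 CPM.

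Calcium handling and conduction genes gave no call, with 0 of 13 and 0 of 9 tested genes, beside 1.12% of all genes. With so few genes, 0 calls do not set these lists apart from that share. The median log2 fold changes were 0.15 and -0.08, beside 0.02 over all genes tested. Atp2a2, the calcium pump of the sarcoplasmic reticulum, had 305, 248, 528 and 494 CPM against 302 and 408 CPM. Slc8a1, the sodium-calcium exchanger, had 98.9, 94.1, 318 and 251 CPM against 153 and 177 CPM, so in both cases the host values lay within the Tet-TKO range. Popdc2, a membrane protein that binds cAMP, had 89.1 to 103 CPM against 171 and 170 CPM. Its adjusted p of 0.00694 was below the threshold but its log2 fold change of -0.87 was not large enough for a call. The gap junction gene Gjc1 had 77.3 to 87.1 CPM against 91.2 and 95.4 CPM.

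A further set of muscle genes, chosen after their values were seen, was called lower. Lrrc10, a heart-specific leucine-rich repeat protein, had 9.66, 6.36, 3.08 and 2.52 CPM against 62.8 and 46.7 CPM (log2 fold change -3.52 ± 0.41, SE; adjusted p = 0.00127, and 0.0258 without WT host library 1). Abra, an actin-binding protein of muscle, had 7.34 to 20.4 CPM against 47.3 and 48.3 CPM. Hspb3, a small heat shock protein of muscle, had 0 to 3.69 CPM against 22.9 and 28.3 CPM, and Myoz1, a calcineurin-binding protein of the Z-disc, had 0.560 to 2.54 CPM against 8.31 and 13.4 CPM. Jsrp1, of the junctional sarcoplasmic reticulum, had 1.12 to 3.86 CPM against 13.2 and 13.7 CPM. The adjusted p of these genes was 0.00612 (Abra), 0.00223 (Hspb3), 0.00771 (Myoz1) and 0.00861 (Jsrp1), and without either WT host library it lay between 0.0273 and 0.191 for all 4. Abra, Myoz1 and Jsrp1 were also lost without some single Tet-TKO libraries, with an adjusted p of up to 0.0146, 0.0229 and 0.0211 (without library 3). Of the alternatives that gave a value, the call was lost in 2 of 23 for Lrrc10, 6 of 23 for Abra, 3 of 23 for Hspb3, 7 of 22 for Myoz1 and 6 of 22 for Jsrp1. Amph, which encodes amphiphysin, had 1.55, 2.54, 0.205 and 0.560 CPM against 43.0 and 41.2 CPM (log2 fold change -5.55 ± 0.43, SE; adjusted p = 9.07e-05), and Atcayos, a transcript antisense to Atcay, had 5.80, 8.91, 5.95 and 5.88 CPM against 59.3 and 69.5 CPM (log2 fold change -3.39 ± 0.21, SE; adjusted p = 1.61e-05). The calls of Amph and Atcayos were kept in all 23 alternatives run.

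TET enzymes act on CpG dinucleotides, and promoter sequences of 4 genes are given with each CpG in capitals. They are 300 bases from RefSeq, on GRCm38.p6, from 250 bases before a RefSeq start of the gene to 50 after it. For Tnni3, Gata5 and Rgs10 this start lies inside the gene as annotated by GENCODE (Tnni3 at chr7:4518305-4524229 and Rgs10 at chr7:128373621-128418758), so other starts may be in use. Methylation was not analysed here, and the letters alone say nothing of it. In the cell types profiled for methylation, the study found TET-dependent loss of methylation at distal regulatory elements. It described the effects at promoters, which had low methylation in both genotypes, as negligible. Nppa lies at chr4:148000472-148000771 on the + strand, Tnni3 at chr7:4522479-4522778 on the - strand, Gata5 at chr2:180334630-180334929 on the - strand and Rgs10 at chr7:128418123-128418422 on the - strand. The first 2 are muscle genes that fell, one kept in all alternatives (Tnni3) and one not (Nppa), Gata5 was the called cardiac transcription factor, and Rgs10 was higher.
Nppa: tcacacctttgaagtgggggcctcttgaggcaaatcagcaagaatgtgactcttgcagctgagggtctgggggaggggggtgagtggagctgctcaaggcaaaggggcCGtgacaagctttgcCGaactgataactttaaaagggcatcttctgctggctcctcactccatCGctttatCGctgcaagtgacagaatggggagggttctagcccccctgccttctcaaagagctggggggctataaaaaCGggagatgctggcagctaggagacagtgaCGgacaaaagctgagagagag
Tnni3: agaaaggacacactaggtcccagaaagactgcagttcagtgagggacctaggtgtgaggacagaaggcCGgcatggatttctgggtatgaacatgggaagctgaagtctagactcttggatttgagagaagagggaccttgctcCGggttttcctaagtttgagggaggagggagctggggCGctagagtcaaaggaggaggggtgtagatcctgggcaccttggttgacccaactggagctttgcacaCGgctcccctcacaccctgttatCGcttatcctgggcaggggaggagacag
Gata5: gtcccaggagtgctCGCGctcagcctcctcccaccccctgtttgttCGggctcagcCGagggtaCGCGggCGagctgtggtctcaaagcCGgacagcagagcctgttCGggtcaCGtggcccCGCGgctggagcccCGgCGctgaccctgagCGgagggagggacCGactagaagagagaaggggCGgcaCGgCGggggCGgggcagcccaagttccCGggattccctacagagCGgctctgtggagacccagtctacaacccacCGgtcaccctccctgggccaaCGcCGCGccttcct
Rgs10: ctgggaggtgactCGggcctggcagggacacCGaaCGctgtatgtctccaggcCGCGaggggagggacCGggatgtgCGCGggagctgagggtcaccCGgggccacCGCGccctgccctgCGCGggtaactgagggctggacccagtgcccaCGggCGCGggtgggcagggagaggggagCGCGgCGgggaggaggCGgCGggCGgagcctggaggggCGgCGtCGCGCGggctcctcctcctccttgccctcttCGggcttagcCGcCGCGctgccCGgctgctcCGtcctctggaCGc

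The windows of Nppa and Tnni3 held 6 and 5 CpG, and 45.8% and 41.8% of the 27025 genes with a window held no more than these, whereas those of Gata5 and Rgs10 held 26 and 34. The median was 8 CpG over all genes with a window and 23 over the 8428 genes tested here that could be matched. Of the 93 lower genes 72 matched, with a median of 11 CpG, and of the 30 higher genes 14 matched, with a median of 17.5. Tested sarcomere genes that were not called had a median of 7 CpG (28 of 33 matched), so few CpG in this window were common to called and uncalled muscle genes. Of 4 motifs searched on both strands, the NKX2-5 core (AAGTG after T and any base) occurred once in the Nppa window and in 11.5% of all 32851 windows. CACGTG, an E-box, occurred once in the Gata5 window and in 7.15% of all. The exact letters AGATAA, a form of the site bound by GATA factors, were not found in the 4 windows and occurred in 11.2% of all. Other forms were not searched, such as TGATAA, which the Nppa window holds. Likewise absent was the CArG box of serum response factor, searched without mismatches, which occurred in 1.63% of all. The search thus does not show that the windows lack sites of these factors.

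Among cardiac transcription factors 1 of 27 tested genes was called, Gata5, which fell, beside 0.845% called lower over all genes, and the median log2 fold change was -0.04. Gata5, a zinc finger factor of cardiac and endodermal precursors, had 39.8, 47.7, 32.0 and 36.7 CPM against 95.5 and 94.6 CPM, so the groups did not overlap (log2 fold change -1.35 ± 0.19, SE; adjusted p = 0.00396). The adjusted p was 0.0739 and 0.0706 without WT host library 1 and 2, and the call was also lost with 4 of 7 rule genes as the minimum (0.0179), with 53 cells from each library (0.0124) and with Tet-TKO libraries summed in pairs (0.0110). In the cells rich in rule genes, given without a test, the log2 fold change was -1.17. The log2 fold change of Gata5 was between -1.60 and -1.09 over the 23 alternatives. Its relatives did not pass: Gata4 had 69.6, 63.6, 99.5 and 119 CPM against 59.6 and 71.5 CPM. Nkx2-5 had 287, 260, 214 and 200.2 CPM against 228 and 230 CPM, and Mef2c, a MADS-box factor of muscle, had 373 to 468 CPM against 444 and 391 CPM, so the host values of both lay within the Tet-TKO range. Tbx20, of chamber muscle, was likewise between 63.8 and 130 CPM against 90.3 and 71.9 CPM. Hand2 had 146, 114, 127 and 179 CPM against 99.2 and 86.0 CPM, higher in 4 of 4 libraries but with an adjusted p of 0.188, and Tbx2, a repressor of chamber genes in the atrioventricular canal, had 38.8 to 62.4 CPM against 27.5 and 16.1 CPM (adjusted p = 0.0436).

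Genes of chambers and of progenitors gave 1 call among 11 and 0 among 16, beside 1.12% of all genes. The call was Nppa, and the medians of the 2 lists were -0.45 and -0.16 on the log2 scale. Nppb, the brain natriuretic peptide next to Nppa on the chromosome, had 4.25, 1.91, 32.6 and 8.12 CPM against 24.9 and 70.3 CPM and did not pass (adjusted p = 0.246). Wnt2, a ligand of the venous pole, had 134 to 201 CPM against 188 and 218 CPM, and Rgs5, a regulator of G-protein signalling, had 95.0 to 219 CPM against 117 and 82.5 CPM. Among progenitor genes, Foxf1 had 111, 89.7, 45.1 and 107 CPM against 60.2 and 55.0 CPM, Fgf8 had 42.6 to 76.5 CPM against 93.5 and 95.0 CPM, and Isl1 had 53.7, 36.9, 23.4 and 59.6 CPM against 49.9 and 51.4 CPM. Isl1 was detected in 10.5% to 19.9% of Tet-TKO and in 19.1% and 18.9% of WT host cardiomyocytes at 5000 UMIs, beside 6.63% to 16.5% of other cells.

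**Figure D4:**
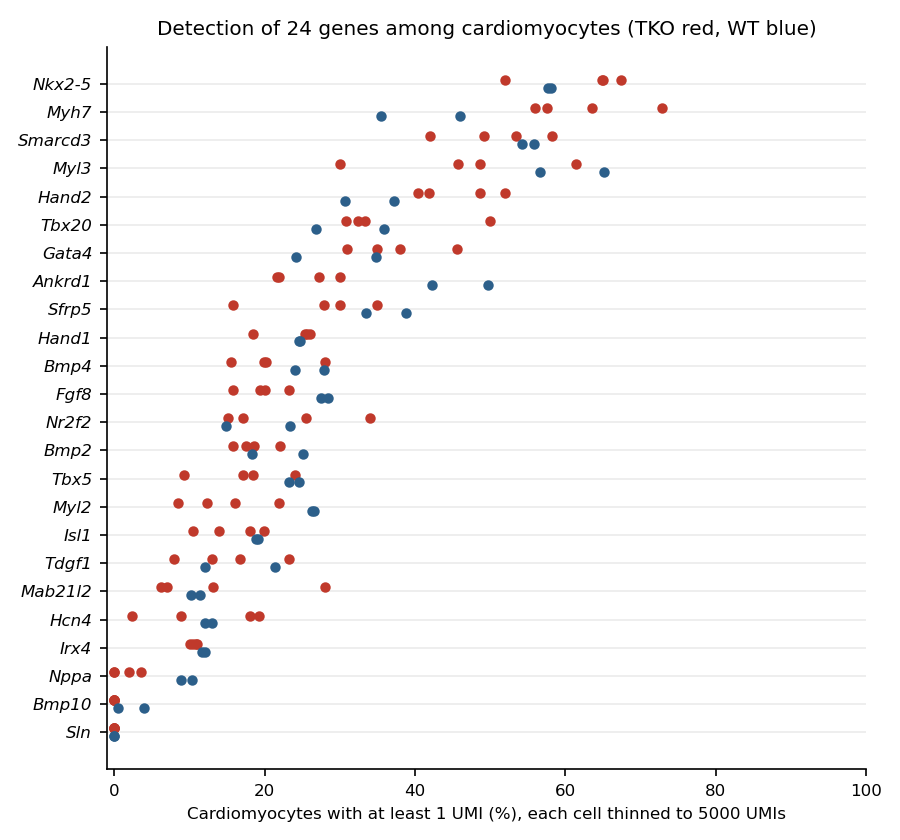
Percentage of cardiomyocytes with at least 1 UMI of each of 24 genes after each cell was thinned to 5000 UMIs, 1 point per library (Tet-TKO red, WT host blue). Tet-TKO points lie apart from both host points to the right for Myh7 and Hand2 and to the left for Ankrd1, Myl2, Fgf8 and Nppa, among others, and the groups overlap for Nkx2-5, Gata4, Isl1 and Hand1.

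Among signalling genes 1 of 17 was called in the BMP pathway, 1 of 20 in the FGF and Wnt pathways and 0 of 10 in the Notch and neuregulin pathways, beside 1.12% of all genes, with medians of -0.03, 0.15 and 0.15 on the log2 scale. Bmp7, a ligand of the BMP family, had 29.0, 19.7, 17.9 and 24.6 CPM against 58.8 and 62.0 CPM (log2 fold change -1.46 ± 0.22, SE; adjusted p = 0.00567). Bmp2 and Bmp4, ligands that induce heart muscle and cushion formation, had 37.1 to 67.7 CPM against 62.2 and 57.3 CPM and 53.1 to 75.02 CPM against 81.4 and 82.1 CPM. Of the transcriptional targets, Id3 had 357 to 441 CPM against 377 and 332 CPM, and Id2, which restrains basic helix-loop-helix factors, had 315, 263, 247 and 248 CPM against 509 and 534 CPM (adjusted p = 0.0111, not called). Lef1, the factor through which Wnt signals reach their targets, had 22.8, 26.7, 23.4 and 17.4 CPM against 70.0 and 46.7 CPM (log2 fold change -1.45 ± 0.23, SE; adjusted p = 0.00841). The adjusted p was 0.0746 and 0.100 for Bmp7 and 0.244 and 0.0292 for Lef1 without WT host library 1 and 2, and it was above 0.01 without Tet-TKO library 2 or 4 for Bmp7, up to 0.0123, and without 1, 3 or 4 for Lef1, up to 0.0221. In all, the call was lost in 7 of 23 alternatives for Bmp7 and in 11 of 23 for Lef1, whose log2 fold change was between -1.70 and -1.11. The Wnt inhibitors Sfrp1 (118 to 148 CPM against 75.1 and 118 CPM) and Sfrp5 (60.7 to 133 CPM against 116 and 177 CPM) and the Notch genes Hes1 (47.7 to 142 CPM against 47.6 and 36.5 CPM) and Jag1 (31.2 to 40.2 CPM against 49.9 and 35.3 CPM) did not pass.

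2 secreted signals outside the lists were also called lower, and were chosen after their values were seen. Kitl, the ligand of the Kit receptor, had 20.9, 17.2, 20.3 and 30.8 CPM against 48.2 and 62.8 CPM, and Sema3a, a guidance ligand, had 6.96, 5.09, 8.00 and 9.24 CPM against 22.9 and 18.5 CPM (adjusted p = 0.00757 and 0.00743). Both were lost without either host library, with an adjusted p of up to 0.176 and 0.192, and also without single Tet-TKO libraries (1, 2 or 3 for Kitl, any for Sema3a), with up to 0.0213 and 0.0229. In all, the call was lost in 9 of 23 alternatives for Kitl, with a log2 fold change between -1.70 and -0.88, and in 12 of 23 for Sema3a, with one between -2.02 and -1.34. Kitl stood mostly in the cells poor in rule genes, at 28.5 to 43.6 CPM in Tet-TKO and 93.2 and 120 CPM in host cells, against 7.45 to 15.8 CPM and 19.7 and 19.97 CPM in the cells rich in them.

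The matrix and adhesion list had 0 calls among 19 genes, beside 1.12% of all genes. Its median log2 fold change was 0.38, and 16 of the 19 were positive, beside 5734 of the 11014 genes tested. Vcan, a proteoglycan of the cardiac jelly, had 321, 305, 648 and 538 CPM against 289 and 271 CPM (adjusted p = 0.304), and Sparc, a collagen-binding glycoprotein, had 263 to 339 CPM against 259 and 237 CPM. For both the 4 Tet-TKO libraries lay above the host libraries, with libraries 3 and 4 the higher pair. Twist2, a mesenchymal factor chosen after its values were seen, was called higher, at 31.3, 29.9, 26.9 and 39.2 CPM against 11.2 and 9.42 CPM (log2 fold change 1.56 ± 0.23, SE; adjusted p = 0.00598, and 0.0783 and 0.127 without WT host library 1 and 2; it was also lost without Tet-TKO library 1, 2 or 4, with an adjusted p of up to 0.0125). In all, the call of Twist2 was lost in 10 of 23 alternatives, with a log2 fold change between 0.89 and 1.70.

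Among 17 tested genes of muscle metabolism 1 was called, beside 1.12% of all genes, and the median log2 fold change was -0.44. The call was Slc2a1, the glucose transporter of embryonic heart, with 220, 240, 226 and 219 CPM against 433 and 468 CPM (log2 fold change -1.04 ± 0.14, SE; adjusted p = 0.00304). Its level was close to equal in the 4 Tet-TKO libraries, and the call was lost without WT host library 1 or 2 (adjusted p = 0.0547 and 0.0973). It was also lost with Tet-TKO libraries summed in pairs (0.0186), and, because the change was then smaller than 1 in size, without Tet-TKO library 4, without libraries 3 and 4 and with the replicate block, where the log2 fold change of Slc2a1 was -0.99, -0.93 and -0.93. Ldha, lactate dehydrogenase A, had 2470 to 3559 CPM against 3974 and 3748 CPM, and Atp5a1, of the ATP synthase, had 503 to 644 CPM against 604 and 608 CPM, neither of them called.

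Further genes with roles in metabolism were called lower outside the lists, and were picked after their values were seen, so no theme is tested by them. Ndufa4l2, which encodes a hypoxia-induced relative of a respiratory chain subunit, had 3.86, 4.45, 1.85 and 0.560 CPM against 60.8 and 43.2 CPM (log2 fold change -4.55 ± 0.42, SE; adjusted p = 0.000307), a call kept in all 23 alternatives run. Cox4i2, the hypoxia-responsive isoform of a cytochrome c oxidase subunit, had 9.27, 11.4, 7.80 and 3.64 CPM against 83.7 and 46.7 CPM (log2 fold change -3.16 ± 0.36, SE; adjusted p = 0.00112, and 0.0267 without WT host library 1). Mgarp, another mitochondrial protein induced by hypoxia, had 23.2 to 32.4 CPM against 66.5 and 65.2 CPM. Mcub, an inhibitory subunit of the mitochondrial calcium uniporter, had 0 to 0.840 CPM against 8.89 and 8.25 CPM. Gpx3, a glutathione peroxidase, had 106 to 167 CPM against 355.5 and 414 CPM, and Ak1, adenylate kinase, had 31.2 to 38.6 CPM against 73.1 and 74.997 CPM. The adjusted p of these 4 genes was 0.00321, 0.00224, 0.00279 and 0.00369, and without either WT host library it lay between 0.0283 and 0.0900. Ak1 was also lost without Tet-TKO library 3 (0.0109). In all, Ak1 lost its call in 7 of 23 alternatives, with a log2 fold change between -1.29 and -0.90, Mgarp in 5 of 23, Gpx3 in 2 of 23 and Mcub in 2 of 22.

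Rgs10 and Cdo1 rose. Rgs10, an inhibitor of G-protein signalling on chromosome 7, had 249, 221, 235 and 241 CPM against 49.3 and 53.0 CPM (log2 fold change 2.17 ± 0.16, SE; adjusted p = 5.19e-05), and the call was kept in all 23 alternatives. It was high in the cells poor in rule genes as well, at 157 to 210.3 CPM against 37.7 and 28.3 CPM, and in the cells rich in them, at 263 to 306 CPM against 56.6 and 71.6 CPM. Cdo1, cysteine dioxygenase, had 186, 125, 90.3 and 113 CPM against 27.2 and 19.6 CPM (log2 fold change 2.40 ± 0.35, SE; adjusted p = 0.00456, and 0.0546 and 0.102 without WT host library 1 and 2), and its call was lost in 3 of 23 alternatives. Cdo1 had 315, 188, 124 and 194 CPM against 31.8 and 25.5 CPM in the cells rich in rule genes and 94.5, 30.1, 30.2 and 42.6 CPM against 19.97 and 11.9 CPM in those poor in them, so the Tet-TKO libraries lay above the host libraries in both.

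Imprinted genes had more positive than negative differences. Of 24 tested 3 rose, 1 fell and 17 were positive, with a median log2 fold change of 0.56, beside 5734 positive among the 11014 genes tested, 0.273% called higher and a median of 0.02. Plagl1, a zinc finger factor of an imprinted gene network, had 207, 202, 232 and 418 CPM against 73.4 and 84.0 CPM (log2 fold change 1.69 ± 0.27, SE; adjusted p = 0.00841). Zdbf2, which is expressed from the paternal allele, had 102, 101, 154 and 184 CPM against 30.7 and 45.5 CPM (log2 fold change 1.79 ± 0.25, SE; adjusted p = 0.00403), and Ndn, which encodes necdin, had 336, 275, 280 and 285 CPM against 134 and 142 CPM (log2 fold change 1.05 ± 0.17, SE; adjusted p = 0.00796). Asb4, an ankyrin repeat protein, fell, from 121 and 113 CPM in the host to 38.6, 43.3, 37.1 and 50.7 CPM (log2 fold change -1.52 ± 0.15, SE; adjusted p = 0.000519). None of the 4 was called without WT host library 1 or 2, where the adjusted p lay between 0.0110 and 0.203, and Plagl1 and Ndn were also lost without Tet-TKO library 3 (0.0106) and 2 (0.0162), and Ndn without library 1, where the log2 fold change of Ndn was 0.95. In all, the call was lost in 6 of 23 alternatives for Plagl1, 9 of 23 for Ndn, 2 of 23 for Zdbf2 and 2 of 23 for Asb4. The other kept cells of the same libraries had log2 fold changes of 1.73, 1.92, 1.37 and -2.02 for these 4 genes. Cdkn1c, the most abundant of the list, had 2035 to 2494 CPM against 2416 and 1866 CPM, and Gnas had 1237 to 1504 CPM against 1166 and 1189 CPM. Reads were not split by allele, so these are summed levels.

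Cell cycle genes and enzymes of DNA methylation gave 0 calls of 25 and 0 of 8, beside 1.12% of all genes, a share from which lists of this size cannot be set apart. Their medians were -0.10 and -0.13. Top2a, topoisomerase of dividing cells, had 286, 274, 449 and 445 CPM against 269 and 330 CPM. Ccnd2, cyclin D2, had 106, 135, 156 and 127 CPM against 251 and 244 CPM, with an adjusted p of 0.00694 but a log2 fold change of -0.97, below the size needed. Dnmt1, the maintenance methyltransferase, had 85.2 to 123 CPM against 103 and 105 CPM, and its partner Uhrf1 had 67.6 to 82.3 CPM against 99.5 and 102 CPM.

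Markers of blood and of endoderm fell, although the cells were chosen for heart muscle genes. Of 10 tested erythroid markers 9 fell, beside 0.845% called lower over all genes, and their median log2 fold change was -7.05. The summed level of the 12 markers was between 7.56 and 61.1 CPM in the Tet-TKO libraries against 2838 and 7483 CPM in the host libraries. Hba-x, an embryonic alpha-globin, had 5.41, 18.4, 7.18 and 3.08 CPM against 1408 and 3232 CPM, and Hbb-bh1, an embryonic beta-globin, had 13.1, 28.6, 6.36 and 2.24 CPM against 909 and 1831 CPM. Further called members were Hbb-y (0.386 to 5.72 CPM against 326 and 1740.2 CPM), Hba-a1 (0.280 to 4.45 CPM against 109 and 349 CPM), Hba-a2 (0 to 0.410 CPM against 34.98 and 161 CPM), Alas2, Klf1 and Hbb-bs. Alas2 and Hbb-bs were lost without WT host library 2 (adjusted p = 0.0283 and 0.110), Klf1 also without library 1 (0.0850), and Klf1 and Hbb-bs also without single Tet-TKO libraries (up to 0.0214 and 0.0245), with 1 of 19, 6 of 21 and 7 of 21 alternatives lost for Alas2, Klf1 and Hbb-bs. Haemoglobin took 0.000695% to 0.00497% of the UMIs of Tet-TKO cardiomyocytes and 0.211% and 0.707% in the host, beside 0.0474% to 0.158% and 1.69% and 4.30% in the other cells of the same libraries. The host libraries held 513 and 1771 cells with over 10% haemoglobin, of which 1 and 2 were cardiomyocytes, and the Tet-TKO libraries held 0, 12, 8 and 4. Of 8 endoderm markers 4 fell, beside 0.845% of all genes, with a median of -2.26 beside 0.02 over all genes tested. Apoa1, Ttr and Afp, genes of the yolk sac endoderm, had 0.280 to 2.54, 3.36 to 9.44 and 0 to 0.821 CPM against 114 and 115, 173 and 179, and 22.1 and 30.2 CPM. Without predicted doublets the log2 fold change of Apoa1 was -5.59, beside -6.89 with them, and the log2 fold change of Ttr was -3.35, beside -4.90, and neither was called (adjusted p = 0.0109 and 0.0527). Cldn6, a claudin of epithelia, had 1.91 to 2.32 CPM against 13.2 and 7.85 CPM and was lost without any single library (adjusted p between 0.0105 and 0.326), and in 10 of 20 alternatives in all. Krt8 and Krt18, keratins that early heart muscle also expresses, had 317 to 422 CPM against 394 and 317 CPM and 236 to 356 CPM against 327 and 265 CPM. Rbp4, a retinol carrier named by its size of change, had 0.560 to 2.67 CPM against 105 and 117 CPM, and the log2 fold change of Rbp4 was -6.05, and -4.76 without doublets. In the cells rich in rule genes, chosen by those genes and so given without a test, the log2 fold change of Apoa1 was -2.86, the log2 fold change of Ttr was -2.60 and the log2 fold change of Rbp4 was -3.43. Apoa1 had 0.607 to 4.25 CPM against 14.98 and 6.89 CPM in these cells, and 0 to 0.661 CPM against 270.01 and 258 CPM in the cells poor in rule genes. The part of free RNA from blood and yolk sac in these differences was not tested, and without the markers of both lists 110 genes were called, 30 higher and 80 lower. The lists do not hold all genes of this kind. Of the 93 lower genes, 35 had a host level in cardiomyocytes below 0.5 times that in the other host cells. Apom, Apob and Cubn were among these and are on neither list. A further 40 lay between, and 18 had at least 5 times the level of the other cells.

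Markers of the other cell types tested gave no call in the summed cardiomyocytes. The 12 endothelial and endocardial markers summed to 41.3 to 51.2 CPM against 91.7 and 59.7 CPM, and the median log2 fold change of the 6 tested was -1.26, with 5 negative. Etv2, an early factor of blood vessel and blood precursors, had 3.48, 4.45, 3.08 and 0.280 CPM against 19.5 and 14.5 CPM (log2 fold change -2.77, adjusted p = 0.0184). Kdr had 12.1 to 21.8 CPM against 25.2 and 13.0 CPM, Npr3 had 13.1 to 18.5 CPM against 14.9 and 11.4 CPM, and the defining genes Cdh5, Pecam1 and Tie1 were at most 3.44 CPM in any library. Epicardial, neural and paraxial mesoderm markers summed to at most 48.1, 56.0 and 19.1 CPM. Their most abundant members were Aldh1a2 (3.18 to 17.7 CPM over the 6 libraries), Tcf21 (5.72 to 18.2 CPM), Sox2 (2.24 to 21.6 CPM), Otx2 (3.92 to 11.4 CPM), Tcf15 (1.27 to 6.77 CPM) and Pax3 (1.15 to 6.28 CPM). Mesenchyme and pharyngeal mesoderm markers, which heart progenitors share, summed to 498 to 778 CPM against 545 and 492 CPM, with Prrx2 at 250.1 to 308 CPM against 240.0 and 244 CPM and Twist1 at 93.8 to 156 CPM against 116 and 89.5 CPM. Of 6 tested pluripotency and germline genes 1 fell, beside 0.845% called lower over all genes. It was Tdh, threonine dehydrogenase (0 to 1.27 CPM against 10.6 and 9.82 CPM). The call was lost without either host library, and without Tet-TKO library 3 (edgeR quasi-likelihood test, adjusted p = 0.0106). Rhox5 had 8.00 to 54.1 CPM against 43.3 and 34.2 CPM.

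Apart from the tdTomato label, which is 1 of the 30 higher genes and set the sort, the largest called increases above a mean of 20 CPM included ribosomal pseudogenes and copies of genes. Rps13-ps1 had 71.2 to 121 CPM against 1.43 and 1.57 CPM (log2 fold change 5.94), Rps3a3 had 3499 to 4259 CPM against 217 and 31.4 CPM (4.90), Rps15a-ps8 had 127 to 138 CPM against 8.31 and 0.393 CPM (4.73) and Gm15459 had 18.5 to 50.7 CPM against 1.43 and 1.57 CPM (4.40). AA465934, Eif3j2, BC002163 and Wdfy1 had log2 fold changes of 3.65, 3.61, 3.34 and 2.66. Gm15459 and AA465934 were not called without either host library (adjusted p of up to 0.0449 and 0.0403), nor Wdfy1 without host library 2 (0.0111), and with 53 cells from each library Gm15459 and Wdfy1 were not called (0.0293 and 0.0245; log2 fold change of Gm15459 3.99 and log2 fold change of Wdfy1 2.66). Rps3a1, a ribosomal protein gene near identical to Rps3a3, went the other way, with 273, 295, 237 and 210 CPM against 4332 and 4319 CPM (log2 fold change -4.13). Reads of near-identical copies can be assigned to either copy, so the levels of Rps3a1, Rps3a3 and the pseudogenes are uncertain. The other kept cells had log2 fold changes of 4.36 for Rps3a3 and -3.87 for Rps3a1, close to 4.90 and -4.13 in cardiomyocytes, and strain and genotype cannot be told apart for any of these genes.

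Whether a difference was larger or smaller in cardiomyocytes than elsewhere was tested by the interaction of genotype and cell group, with the library as a block, on the sums of cardiomyocytes and of all other kept cells (edgeR quasi-likelihood test). Of 18601 genes 159 were called (0.855%), 72 with a higher and 87 with a lower log2 fold change in cardiomyocytes. Of the 123 genes called in cardiomyocytes, 69 were also called in the same direction in the other cells, where 561 genes were called in all, 27 were past the interaction test, 10 had the opposite sign in the other cells and 2 were not tested there. The 123 were chosen for a large change in cardiomyocytes, which also enters the interaction. The 27 can therefore not be set against the 0.855% over all genes, and the 69 and the 10 are given as counts only. The other cells are a mixture whose makeup differed between genotypes. The number of genes past the interaction test fell to 77 when cells with over 10% haemoglobin were left out of the other cells.

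Among the named genes the largest differences in size from other cells were those of Atcayos (-4.61), Amph (-4.53) and the haemoglobin gene Hba-a2 (-4.10). Some genes were close to the floor in the other cells, where Atcayos had 0.0969 to 0.683 CPM and Myl1 had 0.523 to 0.881 CPM. Their fold changes in the other cells thus rest on very low levels. Myl1 had a log2 fold change of -2.23 in cardiomyocytes and 0.19 in other cells, a difference of -2.55 (interaction, adjusted p = 0.000340). Bmp7 (-1.46 against 0.31, difference -1.76), Lef1 (-1.45 against 0.55, difference -2.01) and Gata5 (-1.35 against -0.06, difference -1.30) were also past this test, with an adjusted p of at most 4.96e-05. Genes that had not been called in cardiomyocytes alone joined them, among them Tpm1 (-0.42 in cardiomyocytes and 0.70 in other cells, difference -1.15), Ccnd2 (-0.97 and 0.64, difference -1.65), Fgf8 (-0.79 and 0.59, difference -1.40), Hey2 (-1.10 and 0.59, difference -1.65), Msx2 (-1.13 and 0.53, difference -1.55), Hoxb1 (-1.29 and 0.40, difference -1.71) and Actn2 (-1.27 and 0.13, difference -1.59). All 7 had a positive log2 fold change in the other cells, but none passed there (edgeR quasi-likelihood test, adjusted p between 0.0631 and 0.835). Actn2 had only 0.291 to 0.667 CPM in those cells. The part of each cell group in these differences is therefore uncertain. Actn2 and Hey2 did not pass without WT host library 1 or 2 (adjusted p = 0.0416 and 0.0124, and 0.0157 and 0.0459). Rgs10 differed between the cell groups, with log2 fold changes of 2.17 and -0.29 and a difference of 2.41, as did Cdo1, with 2.40 and -0.45 and a difference of 2.80 (adjusted p = 1.79e-11 and 1.32e-08). Tnni3 was also called in the other cells, with a log2 fold change of -2.41 there (edgeR quasi-likelihood test, adjusted p = 0.00543), beside -3.35 in cardiomyocytes. Its level in the other cells was low, at 0.530 to 0.947 CPM in Tet-TKO against 4.38 and 3.57 CPM in the host. For Tnni3 the difference of -0.88 was not past the interaction test (adjusted p = 0.150), and for Nppa it was -3.50 (adjusted p = 0.0299). The imprinted genes Plagl1 and Zdbf2 had differences of -0.11 and -0.17, which did not pass.

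**Figure D5:**
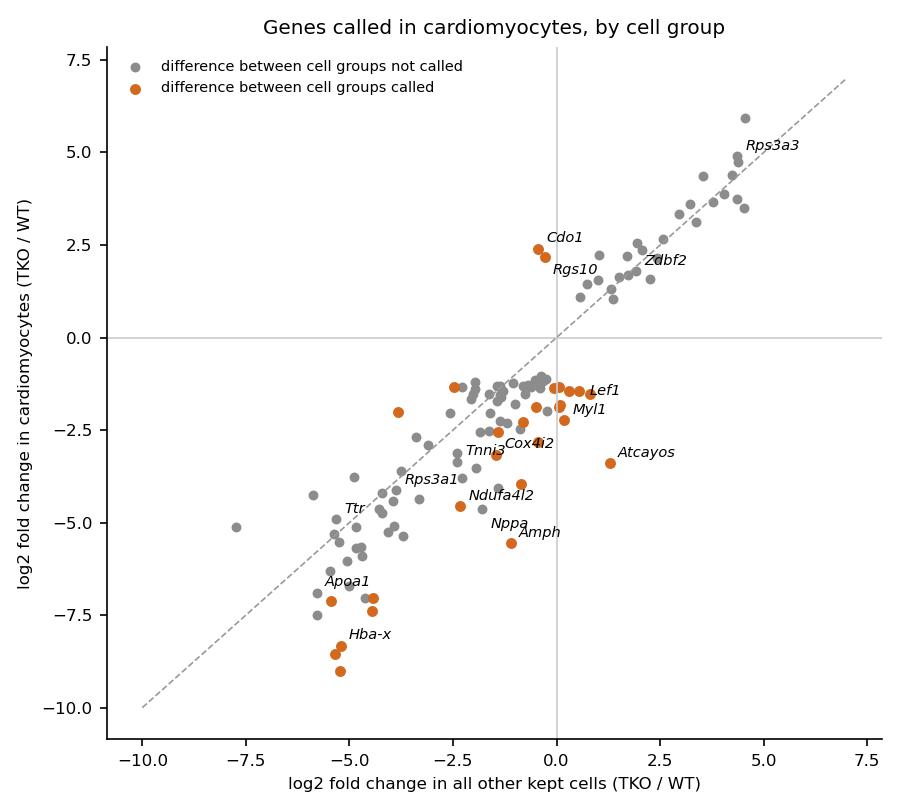
Log2 fold change (Tet-TKO over WT host) of the genes called in cardiomyocytes, in cardiomyocytes (vertical axis) against all other kept cells (horizontal axis); orange points passed the test of the difference, and the dashed line marks equal changes. Gene copies such as Rps3a3 and imprinted Zdbf2 lie near the line, whereas Rgs10 and Cdo1 lie above it and Myl1, Lef1, Amph and Atcayos below it.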

How the data were processed

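Chimaeric embryos were profiled in 8 single-cell libraries, 6 of them from E8.5. The deposited values are UMI counts per gene and cell, made by the authors with Cell Ranger against mm10 and Ensembl annotation with a tdTomato sequence added; only called cell barcodes are in the files. The sources used here give different versions of Cell Ranger. From these counts, cells were filtered and chosen as described, and counts were summed per library over cardiomyocytes and over all other kept cells. The sums were tested with edgeR 4.0.16 (TMM scaling, filterByExpr, glmQLFit and glmQLFTest) in R 4.3.3, with DESeq2 1.42.0 as an alternative, and p-values were adjusted by Benjamini-Hochberg over all genes tested. Shares were compared by exact permutation in scipy 1.17.1. Cells of fewer than 5000 UMIs were left out where cells were thinned. Doublets were kept, and their removal by scrublet scores was an alternative. In simulated counts the test between genotypes recovered 59.2% of 98 genes changed by 1.5 and 99% of 100 changed by 3 on the log2 scale, with 2 false calls, and the interaction test recovered 38% and 92% of 100 each, with 6 false calls. Each simulated library was drawn independently, without the likeness of the Tet-TKO libraries in pairs. No effect was shared by the cell groups of a library either, so these rates may not hold for the data.

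Genes were named by their list (the 2 most abundant of each, and those called), by the size of their change (the 10 highest and 10 lowest called with a mean of at least 20 CPM and every Tet-TKO library outside the range of the host libraries, without rule genes, tdTomato, Xist and Y-linked genes) or, where stated, after their values were seen. The members, the gene lists and the rule for named genes were chosen with earlier results of these data known. Replicate numbers were not shown to pair libraries. Fold changes are Tet-TKO over WT host. No comparison was made at E7.5, where almost no cell met the rule. The values of 1 called erythroid marker are not reported here.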

Additional observations from a re-analysis of the deposited data

Results flagged for a closer look

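In 5 of 101 groups of 4 Tet-TKO libraries 1 library stood apart by Dixon's test, which chance alone does in about 1 in 20 groups. Plagl1 had 418.223 CPM in Tet-TKO library 4 and 202 to 232 CPM in the others. Atcayos had 8.90505 CPM in library 2 and 5.80 to 5.95 CPM in the others, and Hspb3 had 0 CPM in library 2 and 3.36 to 3.69 CPM in the others. Hba-a2 had 0.410385 CPM in library 3 and Alas2 had 0.279935 CPM in library 4, where the other 3 libraries had 0 CPM.

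The genotype effect differed between cardiomyocytes and other cells for 29 of 93 named genes, by the interaction test of edgeR, and the values are differences of log2 fold changes. Over all genes 159 of 18601 were called (0.855%). The named genes were picked by list, by size of change or after their values were seen, so the 29 cannot be set against that share. Among muscle and cardiac genes they were -1.42845 for Tnnt1, -2.54876 for Myl1, -1.1453 for Tpm1, -1.58602 for Actn2, -1.29949 for Gata5 and -1.64979 for Hey2. Signalling and patterning genes had -1.76221 (Bmp7), -2.01386 (Lef1), -1.39879 (Fgf8), -1.71471 (Hoxb1), -1.5458 (Msx2), -1.48629 (Kitl) and -2.46368 (Sema3a). Ccnd2 had -1.64879 and the endothelial factor Etv2 had -2.51251. Of the genes named after their values were seen, Amph had -4.52985, Atcayos -4.61451, Ndufa4l2 -2.04221, Cox4i2 -1.5681, Mcub -3.05718, Dcp1b -2.0048 and Dcaf12l1 -1.84821. Rgs10 and Cdo1 had 2.41149 and 2.7971. Haemoglobin genes had -2.73243 (Hbb-bh1), -3.04108 (Hba-a1), -3.2121 (Hba-x), -3.38768 (Hbb-y) and -4.09997 (Hba-a2).

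Without WT host library 1 the adjusted p of this test was 0.162 for Tnnt1, 0.0416 for Actn2, 0.0157 for Hey2, 0.0103 for Cox4i2 and 0.0582 for Mcub. Without WT host library 2 it was 0.0124 for Actn2, 0.0459 for Hey2 and 0.0288 for Mcub, and Mcub also failed without Tet-TKO library 1, 2 or 3 (0.0178, 0.0242 and 0.0145). The other 24 genes passed without any single library.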

How the results depend on the processing

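The log2 ratio of the shares, 0.53, became -0.44 without Tet-TKO libraries 3 and 4, and was 0.26 to 0.79 without single libraries. The number of genes called, 123, was 34 to 124 without single libraries, with 34 in the absence of either host library. It was 37 with 53 cells from each library, 264 without Tet-TKO libraries 3 and 4, 582 without libraries 1 and 2, 400 without a filter on low counts and 227 at an adjusted p of 0.05. With Tet-TKO libraries 1 and 2, and 3 and 4, summed to 1 sample each it was 88, with 15 of 57 named calls lost, and without predicted doublets it was 87. The genes called in the comparison with other cells, 159, were 77 without haemoglobin-rich cells, 252 without the filter, 284 with cells rich in rule genes (chosen after seeing the data, and a description because the rule genes chose the cells) and 108 to 225 without single libraries. The cause of these changes was not tested. No named gene changed direction: of 2113 values for 93 genes, 1817 kept their side of the threshold, 184 lost it and 112 gained it. Those at an adjusted p of 0.05 or with no minimum fold change came from the main fit, so they could neither lose a call nor change direction. Of 57 called genes named, 32 and 33 were lost without WT host library 1 and 2.

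The replicate block could use libraries 1 and 2 only, and gave 347 genes, 121 of them shared, and a log2 ratio of shares of -0.44. Same-numbered libraries had deviations correlated at 0.18 and -0.14, so the numbers were not shown to pair them.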
